A study of Mus musculus with 4 samples.

Results

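Messenger RNA was measured for 10 long-term stem cell markers in LSK cells of mouse bone marrow, the sorted population that lacks lineage antigens and carries Sca-1 and Kit and that holds the hematopoietic stem cells. The 10 genes were found by their names in the deposited gene table (PROCR, SLAMF1, ESAM, LY6A, CD34, TEK, HLF, SULT1A1, PDZK1IP1 and MLLT3), where each had 1 row among 30854 gene rows. They are Procr, Slamf1, Esam, Ly6a, Cd34 and Tek, which encode surface antigens used to stain stem cells, and Hlf, Sult1a1, Pdzk1ip1 and Mllt3, which no antibody gate uses. All mice (strain C57BL6/J) were 12 to 16 weeks old and had received pIpC, a synthetic double-stranded RNA that induces interferon, 1 week before marrow was taken. The control group held 2 samples from mice labelled only as control. The knockout group held 2 samples (replicates 1 and 3) from mice labelled B-myb floxed-MxCre, in which interferon switches on a Cre recombinase that deletes B-myb (now Mybl2), which encodes a transcription factor of dividing cells. Each sample was a pool of 3 to 5 mice on its own bead array. The labels do not say whether the control mice carried the floxed allele or Mx-Cre, and the Mx promoter responds to interferon in many cell types, so deletion was not limited to stem cells by the design.

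Long-term stem cells are a small fraction of the LSK population and are enriched by further surface markers such as CD150, encoded by Slamf1, and the endothelial protein C receptor, encoded by Procr. In adult mice CD34 protein is low or absent on long-term stem cells and present on the progenitors they give rise to, while Esam and Tek are shared by stem cells and endothelium. Hlf and Mllt3 encode nuclear factors, Sult1a1 an enzyme, and Pdzk1ip1 a small membrane protein, and all 4 are known from transcript profiles of primitive stem cells. In a sorted bulk sample, fewer cells of a type and less RNA per cell cannot be told apart.

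The largest differences between knockout and control lay in Pdzk1ip1 and Sult1a1, which no antibody gate uses, and the antigens of the surface gates differed less. Pdzk1ip1 was 3.84-fold lower and Sult1a1 4.87-fold lower in the knockout samples, with both knockout samples below both controls. These folds depend on the background correction: without it the log2 differences were −1.29 in place of −1.94 and −1.04 in place of −2.28, and the Sult1a1 signals of the knockout samples were only just above background. Esam was 1.57-fold lower and Tek 1.43-fold lower, also without overlap of the groups. Mllt3, which no antibody gate uses either, was 1.52-fold lower with overlap, less than Esam. The contrast with the surface antigens thus rests on Pdzk1ip1 and Sult1a1. Ly6a, Cd34 and Slamf1 differed by less than the spread between samples, and Procr and Hlf were above background on too few arrays to be tested. None of the tested genes passed the test over all genes (limma, Benjamini-Hochberg adjusted p from 0.178 to 0.933, n = 2 arrays per group), so every difference below is given as a value.

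The arrays differed in brightness. The median signal was 91.2 and 84.2 in control cells against 97.4 and 103.8 in knockout cells, close to the medians of each array's negative control probes (80.7 to 99.9). A detection p under 0.05 against those probes, called above background here, was reached by 12297 and 13439 gene rows in control cells against 10761 and 8797 in knockout cells, where knockout replicate 3 had the fewest. The precision is limited by the number of arrays. Values below are log2 intensities after background correction and quantile normalization, and a difference is knockout minus control with its standard error. Mybl2, the targeted gene, was at 7.19 and 6.52 in control cells against 6.72 and 6.62 in knockout cells, a difference of −0.18 ± 0.28 (SE, adjusted p = 0.776 in limma). It was above background on 3 arrays and not on knockout replicate 3, and the groups overlapped. These values do not check the deletion, since the position of the probe in the gene is not known. An exact permutation test of 2 against 2 arrays cannot go below a two-sided p of 0.333.

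Of the 10 markers, 7 were above background on all 4 arrays. Mllt3 was above background on 3 arrays, Hlf on 1 and Procr on 0. The 8 genes above background on at least 2 arrays entered the fit of 11538 genes. Of these 8, 7 were lower in the knockout and 1 higher, where 53.6% of all genes tested were lower. Both knockout values lay below both control values for 4 of the 8, against 28.1% of all genes tested, and both lay above for 0 of the 8, against 22.0%. An unadjusted p under 0.05 with a lower knockout mean was found for 3 of the 8 (Pdzk1ip1, Sult1a1 and Esam), against 8.77% of all genes, and with a higher mean for 0, against 6.56%. A difference of at least 2-fold without overlap was found for 2 of the 8 on the lower side, against 2.32%, and for 0 on the higher side, against 1.30%. At an adjusted p under 0.05 there were 0 of the 8, against 0.00% of all genes (0 of 11538 in limma). The median difference was −0.20 over the 5 surface antigens tested, where the median over all genes was −0.04. Over the 3 other genes tested it was −1.94, which is the value of Pdzk1ip1, while Mllt3 stood at −0.60.

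**Figure D1:**
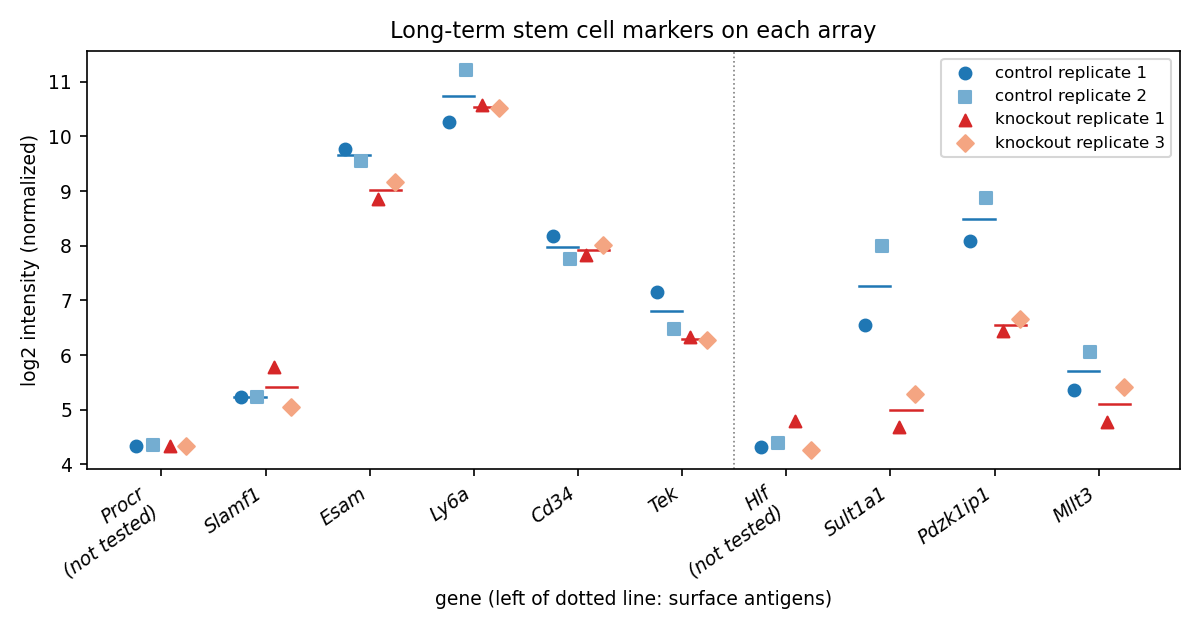
Log2 intensity (normalized, vertical axis) of each marker on each of the 4 arrays, with short lines at the group means of the tested genes. Both knockout points lie below both control points for Esam, Tek, Sult1a1 and Pdzk1ip1, and Procr and Hlf lie near 4.3, the level of rows at background, apart from Hlf at 4.79 on knockout replicate 1.

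Pdzk1ip1 encodes a membrane protein with a PDZ-binding tail, best known from kidney epithelium, and a reporter at this gene marks stem cells in mice. Its log2 intensity was 8.09 and 8.88 in control replicates 1 and 2 and 6.44 and 6.65 in knockout replicates 1 and 3. The knockout samples were close to each other, and the lowest control exceeded the highest knockout by 1.44. The difference was −1.94 ± 0.31, with a 95% interval from −2.71 to −1.18 (unadjusted p = 9.13e-04, adjusted p = 0.178, limma). In the deposited signal before correction, control replicates 1 and 2 read 485.1 ± 25.3 and 536.5 ± 25.2 (bead SE) and the knockout samples 147.6 ± 5.7 and 147.7 ± 6.8. The groups were thus separated in the uncorrected signals as well, but the difference was −1.29 without background correction. Of 11538 genes, 57 had a lower p and 27 a more negative difference.

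Sult1a1 encodes a cytosolic sulfotransferase that conjugates phenols and is a recurrent entry in mouse stem cell signatures. Its log2 intensity was 6.56 and 7.99 in control replicates 1 and 2 and 4.69 and 5.29 in the knockout samples. Control replicate 2 was the highest sample, and the controls differed from each other by 1.43, more than the gap of 1.27 between the lower control and the higher knockout. The difference was −2.28 ± 0.50, with a 95% interval from −3.52 to −1.05 (unadjusted p = 0.00418, adjusted p = 0.234, limma). The uncorrected signals were 208.3 ± 11.4 and 330 ± 17.3 in control cells against 101.9 ± 4.0 and 114.7 ± 5.1 in knockout cells. The knockout signals stood 7.5 and 14.8 above the median negative control probe, against 95th percentiles of these probes at 101.5 and 112.8 for signals of 101.9 and 114.7. They were thus only just above background, and without background correction the difference was −1.04.

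Promoter sequence of both genes with the largest differences, and of Cd34, whose groups overlapped, is shown so that genes with and without separated groups can be set side by side. RefSeq promoter entries of the build GRCm38.p6, which run from 250 bases before to 50 bases after a gene's start, were matched by symbol for 8 of the 10 markers. Capitals mark matches on either strand to any of 4 short motifs. The Myb motif searched was AACNG, the core of the site that Myb proteins bind. The cell cycle genes homology region, bound by complexes that contain B-Myb, was searched as TTTGAA. The site of GATA factors was searched as AGATAA. The core of the site of ETS factors was searched as CGGAA. The Pdzk1ip1 promoter is at chr4:115088458-115088757 on the plus strand, the Sult1a1 promoter at chr7:126676369-126676668 on the minus strand, and the Cd34 promoter at chr1:194938571-194938870 on the plus strand.
Pdzk1ip1: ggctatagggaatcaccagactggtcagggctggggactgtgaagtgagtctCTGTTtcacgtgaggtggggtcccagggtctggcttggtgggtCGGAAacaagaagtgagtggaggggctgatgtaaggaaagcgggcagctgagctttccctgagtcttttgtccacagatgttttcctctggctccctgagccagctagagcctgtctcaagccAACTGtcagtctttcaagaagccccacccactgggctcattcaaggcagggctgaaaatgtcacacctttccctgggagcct
Sult1a1: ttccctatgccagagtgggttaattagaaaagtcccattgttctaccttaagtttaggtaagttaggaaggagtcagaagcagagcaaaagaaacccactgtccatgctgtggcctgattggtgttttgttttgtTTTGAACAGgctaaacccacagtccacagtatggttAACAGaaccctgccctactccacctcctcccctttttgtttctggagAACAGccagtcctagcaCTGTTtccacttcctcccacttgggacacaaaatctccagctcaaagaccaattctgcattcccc
Cd34: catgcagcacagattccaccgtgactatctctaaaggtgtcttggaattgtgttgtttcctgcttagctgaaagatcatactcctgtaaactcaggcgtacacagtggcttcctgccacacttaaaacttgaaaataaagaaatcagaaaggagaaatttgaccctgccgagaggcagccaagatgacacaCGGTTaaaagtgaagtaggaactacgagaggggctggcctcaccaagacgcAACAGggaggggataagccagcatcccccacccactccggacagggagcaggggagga

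The Sult1a1 window held 4 matches to the Myb core and 1 to the homology region, at −115 to −110 from the start, which overlapped the Myb match at −111 to −107. The Pdzk1ip1 window held 2 Myb matches and 1 ETS match, and the Cd34 window held 2 Myb matches. The most Myb matches, 5, were in the second window of Mllt3, whose groups overlapped, and the Tek window held 3. All 9 windows of the 8 markers held a Myb core, as did 80.3% of 32851 promoter windows of the same length. The homology region was in 1 of the 9 windows (17.9% of all windows), the GATA site in 1, that of Tek (11.2%), and the ETS core in 3 (29.9%). These matches are letters in a window and were not tied to binding in these cells.

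Mllt3, also called AF9, is a chromatin reader of the super elongation complex, which releases paused RNA polymerase, and sustains stem cells in human blood. Its log2 intensity was 5.35 and 6.05 in control cells against 4.77 and 5.42 in knockout cells. The samples overlapped, since knockout replicate 3 lay above control replicate 1. The difference was −0.60 ± 0.34 (95% interval −1.45 to 0.24, adjusted p = 0.439, limma). On knockout replicate 1 the signal of 102.9 was not above background. Of 17 fixed partners of Mllt3 in elongation and histone methylation, 10 were tested and 7 of them were higher and 3 lower, with a median difference of 0.08. Ell, an elongation factor, was at 8.70 and 9.27 in control cells against 7.95 and 8.12 in knockout cells (−0.96 ± 0.26), and Dot1l, the histone methyltransferase that AF9 recruits, at 5.66 and 5.63 and at 6.61 and 5.92 (0.62 ± 0.28). Both had an adjusted p above the threshold (0.249 and 0.360 in limma).

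Hlf encodes a PAR bZIP transcription factor whose expression, within the blood system, is restricted to the most primitive cells. Its signal was 88.7 and 84.3 in control cells against 103.1 and 98.2 in knockout cells, and only knockout replicate 1 was above background. No fold is given, because both groups lay at background. Its relative Dbp was at 8.53 and 8.52 in control cells against 7.61 and 8.03 in knockout cells (−0.70 ± 0.23, adjusted p = 0.276 in limma), and the other relative measured, Tef, differed by 0.04 ± 0.25.

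Among the surface antigens, Esam, an immunoglobulin superfamily adhesion molecule of tight junctions, had the largest difference. Its log2 intensity was 9.78 and 9.56 in control cells against 8.86 and 9.17 in knockout cells. The groups did not overlap, and each group's 2 samples lay within 0.31 of each other. The difference was −0.65 ± 0.22 (95% interval −1.20 to −0.10, unadjusted p = 0.0280, adjusted p = 0.283, limma). In the uncorrected signal it read 1383.1 and 821 in control cells against 476 and 451.6 in knockout cells.

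Tek encodes Tie2, the receptor for angiopoietins, which holds stem cells in a quiescent state. It was at 7.15 and 6.48 in control cells against 6.33 and 6.27 in knockout cells. The groups did not overlap, but control replicate 2 lay only 0.15 above the higher knockout. The difference was −0.51 ± 0.28 (95% interval −1.20 to 0.17, adjusted p = 0.422, limma), and −0.18 without control replicate 1. Its ligands Angpt1 and Angpt2 were above background on 0 arrays each. Tie1, the sister receptor, was at 5.93 and 6.04 in control cells against 4.997 and 5.199 in knockout cells (−0.89 ± 0.20, adjusted p = 0.237, limma). Of 10 genes fixed for Tie2 signalling and endothelial junctions 4 were tested, all of them lower, with a median of −0.56. F11r, a junction molecule related to Esam, was at −0.52 ± 0.20 and Emcn, an endothelial sialomucin also found on stem cells, at −0.61 ± 0.30, while Pecam1 was at −0.01 ± 0.21. Because endothelium shares these antigens, endothelial markers were read as well. Of 10 such genes 4 to 6 were above background on each array, Cldn5, Flt4 and Kdr on none, and their summed normalized intensity was 864 to 954 in the controls and 979 to 1125 in the knockouts. Egfl7, which encodes a protein secreted by endothelium, made up 81.6% to 89.6% of that sum, and without it the sums were 140.9 and 158.7 in control cells against 117.2 and 139.6 in knockout cells. Of the 5 endothelial genes tested 3 were lower without overlap (28.1% of all genes) and 2 higher without overlap (22.0% of all genes). Their median was −0.20, and among them were Tie1 (above), Vegfc (−0.57 ± 0.24) and Plvap (0.92 ± 0.25).

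Ly6a encodes Sca-1, the positive antigen of the sorting gate, so that cells low in the protein were removed before measurement. It was at 10.27 and 11.22 in control cells against 10.57 and 10.52 in knockout cells. Control replicate 1 was the lowest sample and control replicate 2 the highest, so the controls bracketed both knockouts. The difference was −0.20 ± 0.34 (95% interval −1.04 to 0.65, adjusted p = 0.803, limma), and turned to 0.28 without control replicate 2. Ly6a has close paralogs, and whether its probe separates them is not known. Of these, Ly6c1, an antigen of monocytes and other cells, was at 8.12 and 8.15 in control cells against 8.83 and 8.48 in knockout cells (0.52 ± 0.22), and Ly6e at 10.78 and 11.30 and at 10.45 and 10.90 (−0.37 ± 0.28). Neither passed the test (adjusted p = 0.338 and 0.548, limma).

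Interferon raises Ly6a, and all mice had been given pIpC. Of 15 interferon-stimulated genes 11 were tested, of which 10 were lower and 1 higher, with a median difference of −0.50 and 0 past the adjusted threshold. On each array 8 to 12 of the 15 were above background, and Ifi44, Ifit1 and Xaf1 on none. Their summed intensity over all 15 rows was 1085 and 1086 in control cells against 727 and 920 in knockout cells. Its part in the Ly6a values was not tested. Kit, the receptor for stem cell factor and the other positive antigen of the gate, was at 9.73 and 10.03 in control cells against 9.04 and 9.005 in knockout cells (−0.86 ± 0.21, 95% interval −1.38 to −0.33, adjusted p = 0.237, limma). By its detection p Kit was above background on 3 arrays, although its signal on knockout replicate 1 was 527.5. The 2 positive gate antigens stood apart in their values, Kit without overlap of the groups and Ly6a with it, and the difference between them was not tested.

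Cd34, a sialomucin, was at 8.19 and 7.76 in control cells against 7.83 and 8.02 in knockout cells. Both knockouts lay between the controls. The difference was −0.05 ± 0.24 (95% interval −0.64 to 0.54, adjusted p = 0.933, limma). Podxl, a related sialomucin, was at −0.53 ± 0.30 (adjusted p = 0.437, limma).

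Slamf1 encodes CD150, the antigen by which long-term stem cells are separated from multipotent progenitors within the LSK gate. It was at 5.23 and 5.23 in control cells against 5.78 and 5.06 in knockout cells. The knockout samples lay on either side of both controls. The difference was 0.19 ± 0.29 (95% interval −0.52 to 0.90, adjusted p = 0.779, limma), and −0.17 without knockout replicate 1. The signal was dim, 12.4 to 31.6 above the median negative control probe, and knockout replicate 3 read 112.3, against a 95th percentile of 112.8 for the negative control probes of that array. A second row named SLAM, an older symbol of the same gene, was above background on 0 arrays and was not used. Of 10 SLAM family genes and adaptors 6 were tested, 3 lower and 3 higher, with a median of 0.12. Ly9 was at 6.21 and 6.02 in control cells against 6.53 and 6.79 in knockout cells (0.54 ± 0.21, adjusted p = 0.319, limma), and Cd48, an antigen that long-term stem cells lack, was at 0.32 ± 0.36.

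Procr encodes the endothelial protein C receptor. Its signal was 89.7 and 83.2 in control cells against 96.2 and 101.8 in knockout cells, within 3.0 of the median negative control probe on every array and above background on none. The arrays therefore give no comparison for it. F2r, the thrombin receptor that activated protein C also cleaves, was at 10.89 and 10.71 in control cells against 10.34 and 9.29 in knockout cells (−0.98 ± 0.37, adjusted p = 0.307, limma). Thbd, which encodes thrombomodulin, was at 0.42 ± 0.29, and the protease-activated receptor genes F2rl2 and F2rl3 at −0.67 ± 0.36 and −0.18 ± 0.20. Of 7 genes fixed for this pathway 4 were tested, 3 lower and 1 higher, with a median of −0.43.

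**Figure D2:**
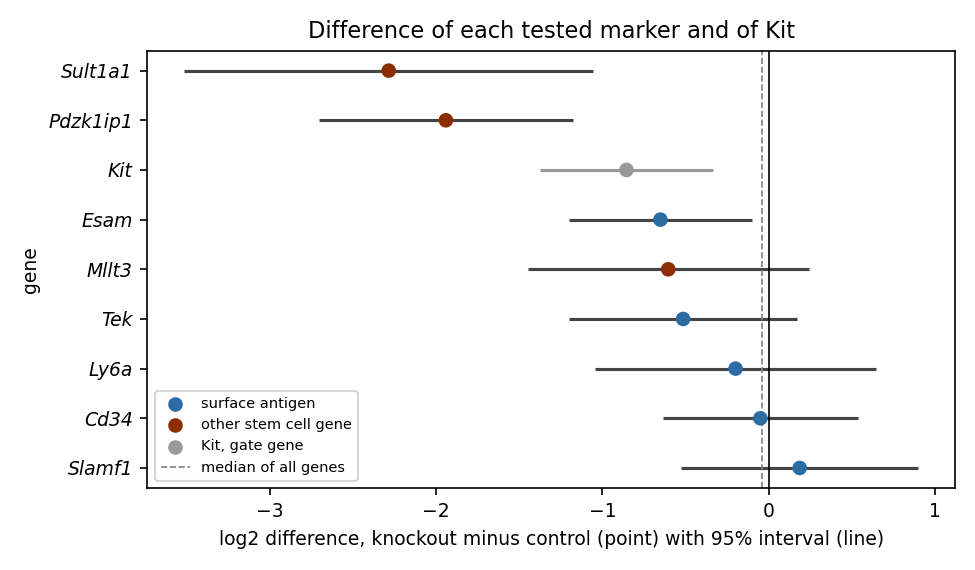
Log2 difference, knockout minus control (horizontal axis), of the 8 tested markers and Kit, as points with 95% intervals from limma and with the median of all genes as a dashed line. The intervals of Sult1a1, Pdzk1ip1, Esam and Kit lie below 0, before any adjustment for the number of genes, and those of the other 5 genes cross it.

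The spread between the control pools did not run the same way in all markers. Control replicate 2 exceeded control replicate 1 in Sult1a1 by 1.43, in Ly6a by 0.95, in Pdzk1ip1 by 0.79 and in Mllt3 by 0.70. Control replicate 1 was the higher one in Tek by 0.67, in Cd34 by 0.43 and in Esam by 0.22, and in Slamf1 the controls lay within 0.01 of each other. The knockout pools were within 0.06 of each other in Ly6a and Tek and at most 0.72 apart, in Slamf1. Relative to the control mean, the median of the 5 surface antigens was −0.17 and −0.22 on the 2 knockout arrays. That of the 3 other genes was −2.05 and −1.83, which are the values of Pdzk1ip1, while Mllt3 stood at −0.93 and −0.28.

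Pdzk1ip1 and Sult1a1 were the 2 markers lower by at least 2-fold without overlap without background correction, with cyclic loess and with a larger offset. They were also the 2 with each array left out, but there neither could have dropped out. The arrays were not normalized again, and the log2 gaps between the groups, 1.44 and 1.27, were each more than 2-fold. The share of all genes was not taken for these settings. Scaling the arrays to a common median over all gene rows left the tested genes dimmer on the knockout arrays. The median difference over the 11538 genes tested was then −0.70. Relative to it Sult1a1 stood at −2.22, Pdzk1ip1 at −2.13, Tek at −0.77, Esam at −0.76 and Mllt3 at −0.56. Cd34 stood at −0.29, Ly6a at −0.18 and Slamf1 at 0.27 (−0.43 before that median is taken off). Under this setting Pdzk1ip1, Sult1a1 and Esam passed the adjusted threshold in limma (adjusted p = 0.0229, 0.0247 and 0.0481), as did 940 of all 11538 genes tested.

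**Figure D3:**
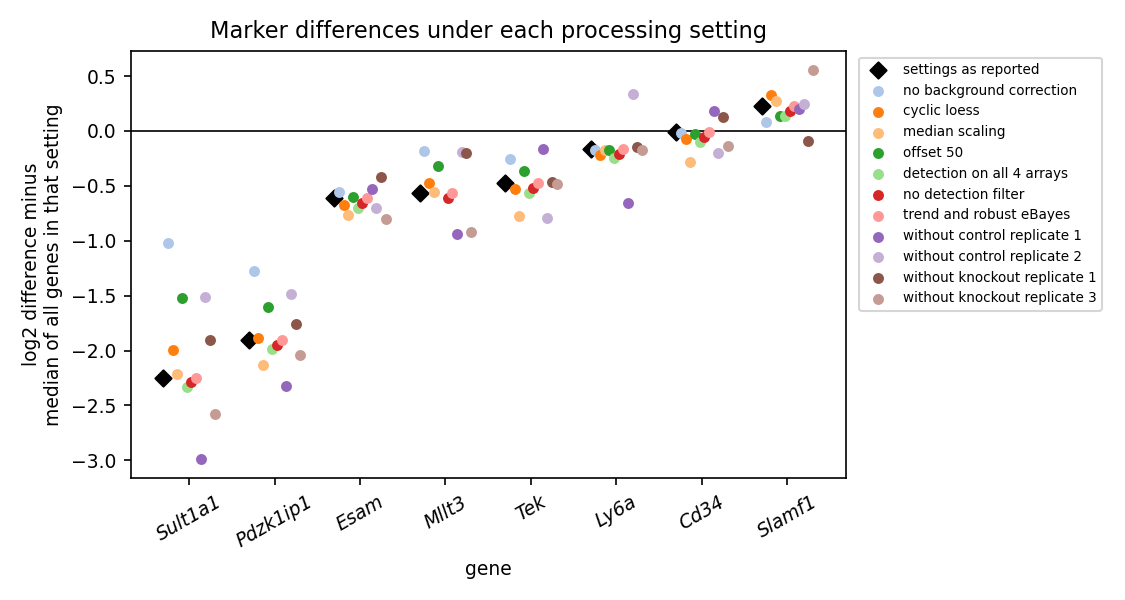
Log2 difference of each tested marker minus the median of all genes under the same setting (vertical axis), with a black diamond for the settings as reported and 1 coloured point per alternative. Sult1a1 spans −2.98 to −1.02 and Pdzk1ip1 −2.32 to −1.28, while the points of Ly6a, Cd34 and Slamf1 lie on both sides of 0.

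Other stem cell genes were set beside the markers. Of 30 further genes known from primitive stem cells 22 were tested, of which 20 were lower and 2 higher (median difference −0.71), 16 were lower without overlap (28.1% of all genes) and 10 were lower at an unadjusted p under 0.05 (8.77% of all genes), with 0 past the adjusted threshold. Such a list overlaps with one already known to be low in these arrays, so it is no independent support. Mmrn1, which encodes the platelet and stem cell protein multimerin, was at 7.75 and 8.22 in control cells against 5.97 and 5.90 in knockout cells (−2.05 ± 0.24). Ndn, a growth suppressor of quiescent stem cells, was at 8.12 and 8.13 and at 6.36 and 5.997 (−1.94 ± 0.22). Their adjusted p was 0.114 each in limma. Mecom, Fgd5, Prdm16, Erg, Rarb and Robo4 were above background on 1 array each and Mycn on 0, and so, like Hlf, gave no comparison.

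Of 14 surface genes of the gate or of gates that divide LSK cells 10 were tested, 9 lower and 1 higher, with a median of −0.41. Itga2b, an integrin of megakaryocytes and stem cells, was at 7.17 and 7.27 in control cells against 6.48 and 6.33 in knockout cells (−0.81 ± 0.20, adjusted p = 0.237, limma). Eng, a co-receptor of the TGF-beta family, was at −0.76 ± 0.24, and neither gene's groups overlapped. Cd9 was at −0.02 ± 0.28. Flt3, which separates lymphoid-primed progenitors, was above background on 1 array and was not tested.

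**Figure D4:**
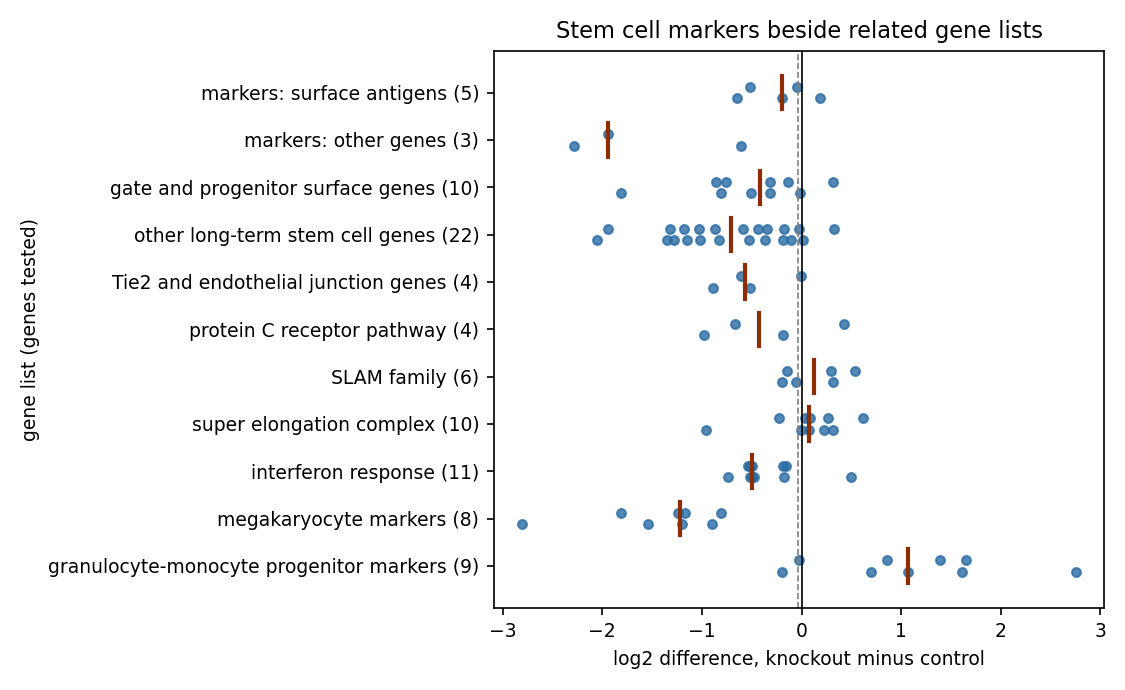
Log2 difference, knockout minus control (horizontal axis), of every tested gene of 11 lists, with the number of genes tested in brackets, thick lines at the list medians and a dashed line at the median of all genes. The other markers (median −1.94) and megakaryocyte genes (−1.22) lie lowest, and granulocyte-monocyte progenitor genes (1.07) highest.

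Markers of other cells differed along with these values, and their part in the stem cell marker differences was not tested. Megakaryocyte genes, some of which, such as Itga2b, also stand in the gate list, had a summed intensity of 1970 and 2341 in control cells against 609 and 516 in knockout cells, with 8 of 8 tested genes lower. Of their 9 rows 8 were above background on each control array and 6 and 4 on the knockout arrays, and Gp6 on none. Granulocyte-monocyte progenitor genes summed to 9663 and 8758 in control cells against 15261 and 21866 in knockout cells, with 7 of 9 higher and 7 to 9 of the 9 above background on each array. Mature neutrophil genes summed to 1412 and 4406 in the controls and to 16198 and 929 in knockout replicates 1 and 3, so the knockout pools stood on either side of the controls. Of 10 neutrophil rows 4 to 9 were above background on an array, and Mmp8 on none. Of the 8 neutrophil genes tested 7 were higher and 1 lower, all with overlap of the groups.

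B cell genes summed to 1382 and 705 in control cells against 840 and 331 in knockout cells, with 6 of 6 tested genes lower and a median of −0.37. Erythroid genes summed to 4608 and 3965 and to 3039 and 8222, with 3 lower and 5 higher. T and NK cell genes summed to 1673 and 1787 in control cells against 2684 and 3935 in knockout cells, of which Nkg7, a granule protein of cytotoxic cells, made up 60.4% to 90.9%. Without Nkg7 the sums were 317 and 707 against 363 and 358, and of the 8 genes tested 3 were lower and 5 higher, with a median of 0.06. Lck, a T cell kinase, was at −0.69 ± 0.25. Of the 9 B cell rows 3 to 7 were above background on an array (Cd22 and Ms4a1 on none), of the 10 T and NK cell rows 3 to 8 (Cd8a and Ncr1 on none) and of the 10 erythroid rows 7 to 9. Lymphoid-primed genes, with Ighm, the immunoglobulin heavy chain gene, at 55.2% to 91.8% of the total, summed to 3348 and 8860 in control cells against 2716 and 3220 in knockout cells, with 3 to 9 of 10 rows above background on an array and Ccr9 on none. Without Ighm the sums were 872 and 723 in control cells against 1216 and 842 in knockout cells, and of the 8 genes tested 5 were higher and 3 lower, with a median of 0.16 (Notch1 0.75 ± 0.26, Dntt 0.73 ± 0.53).

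Tal1, a transcription factor needed to form stem cells, is the protein-coding neighbour on one side of Pdzk1ip1 in the RefSeq table. It was at 8.97 and 8.70 in control cells against 8.40 and 8.23 in knockout cells (−0.52 ± 0.21, adjusted p = 0.328, limma). The groups did not overlap, and the difference was smaller than that of Pdzk1ip1. The coding neighbours of Sult1a1, Sgf29 (0.21 ± 0.21) and Slx1b (−0.04 ± 0.20), differed by about their standard error or less.

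The gene whose 4 values ran closest to those of a marker was found by the root mean square difference of centred log2 intensities over the 4 arrays, among all genes tested. It was Gm10419 for Pdzk1ip1 (0.064), A230057M07RIK for Sult1a1 (0.17), Dmwd for Esam (0.031), S100a10 for Tek (0.021), Uck1 for Cd34 (0.020), Dgcr8 for Mllt3 (0.010), Prss42 for Slamf1 (0.022) and A830081L15RIK for Ly6a (0.023). With 4 arrays and 11538 genes, close matches are plentiful. Sult1a1 had the most distant nearest gene, but the values were not scaled, so the distance depends on how far a gene's 4 values lie apart. It therefore does not set the pattern of Sult1a1 apart.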

How the data were processed

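Biotinylated cRNA from RNA of sorted LSK cells was hybridised to Illumina bead arrays, 1 per sample, per the labels. The deposited gene table gave, per the file headers, an intensity per gene name that was neither background-corrected nor normalized, with a detection p-value, a bead standard error and a bead number. The sources used here give neither the array type nor the software, nor how probes of a name were combined. The submitters' second table held 30840 rows of deposited intensity, quantile-normalized without background subtraction (column medians 94.1 to 94.2). 8 of the markers matched exactly 1 of its rows within 1%, and the table was not used further because its identifiers are not paired with genes here.

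Names were updated with a RefSeq table of GRCm38.p6 (16223 matched a symbol, 5684 an older symbol, 868 a gene identifier, 8079 none). Intensities were corrected by normexp with 936 negative control probes, with an offset of 16 added, then quantile-normalized and taken to log2 (neqc, limma 3.58.1, R 4.3.3). Genes with a detection p under 0.05 on at least 2 arrays were fitted together with lmFit and eBayes (3.72 prior degrees of freedom), 1 row per gene (a marker's own row, otherwise the brightest), knockout against control with no covariate, two-sided, with Benjamini-Hochberg adjustment over 11538 genes. The fit was also run on simulated data with independent errors drawn from its own variance model, which checks the code and not the marker differences. Summed levels of cell markers are linear, with the offset taken off. Groups came from sample titles. Each p-value sets a difference against the spread between 2 pools per genotype, which eBayes draws toward the spread of all genes tested. From each further list the text names at most 4 genes, those with the smallest p, plus Kit, Angpt1, Mybl2 and Ly6a paralogs; Angpt2, Cd9, Flt3, Tal1 and the neighbours of markers were named after their values were seen, as were further genes below background. Some genes that this rule names are not reported here. The markers and lists were chosen with earlier results of these data known. Alternatives were the background correction, the normalization, the offset, the detection filter, the variance model and each array left out.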

Additional observations from a re-analysis of the deposited data

How the results depend on the processing

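No paired analysis was possible because the groups share only replicate number 1. Over the 8 tested markers, 87 values were recomputed under 11 alternatives: 79 kept their direction and their side of the adjusted threshold, 3 passed it and 5 changed sign, and the cause was not tested. Changing the detection filter or the variance model left each marker's difference as reported, so no sign could change there. No marker passed the threshold as reported, so keeping its side meant not passing it. The 3 that passed came with median scaling, where the median difference over the genes tested was −0.70. They were Esam (−1.47, adjusted p = 0.0481), Sult1a1 (−2.92, adjusted p = 0.0247) and Pdzk1ip1 (−2.83, adjusted p = 0.0229), all in limma. Signs changed in Slamf1 with median scaling (−0.43), and among the fits with 1 array left out in Slamf1 (range −0.17 to 0.55), Cd34 (−0.26 to 0.16, above 0 without control replicate 1 or knockout replicate 1) and Ly6a (−0.67 to 0.28). The number of all genes past the adjusted threshold, 0 as reported with 1769 at an unadjusted p under 0.05, was 940 with median scaling, 17 with detection on all 4 arrays, 15 with a trended and robust variance and 3 with cyclic loess. Under median scaling 7 of the 8 markers were lower at an unadjusted p under 0.05 in limma, as were 4368 of all 11538 genes tested. By 2-fold without overlap 5 markers were lower, and the share of all genes was not taken for this setting. The medians were −0.99 (surface antigens) and −2.83 (other genes). The other genes' median was −1.04 without background correction and −1.27 with no detection filter, which brings in Hlf. With 1 array left out, where the lone array is assumed to vary like the other group, the medians ranged from −0.26 to −0.17 and from −2.34 to −1.55. Sult1a1 then lay between −3.00 and −1.57, Pdzk1ip1 between −2.34 and −1.55 and Esam between −0.81 and −0.50. With a detection limit of 0.01 in place of 0.05, 5 rather than 7 markers were above background on all arrays; dim signal limits Slamf1, Mllt3, Sult1a1, Hlf and Procr.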
